A study of Mus musculus with 54 samples.

Results

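The cornea of mice with a myeloid-specific knockout of the miR-183/96/182 cluster (MS-CKO) was compared with that of the WT controls of the same strain (MS-WT). The 10 cornea libraries numbered 1 to 5 for MS-CKO and 1 to 5 for MS-WT were taken, of 54 samples in the series. MS-CKO mice were Csf1r-EGFP(+/+), miR-183C f/f and LysM-Cre(+/-), and their control littermates were likewise Csf1r-EGFP(+/+) and miR-183C f/f but LysM-Cre(-/-), so that floxed alleles and the EGFP reporter of myeloid cells were common to both groups and only the Cre allele differed. In LysM-Cre the recombinase sits at the start codon of Lyz2, the lysozyme gene of macrophages and neutrophils, which takes out that copy of Lyz2, and MS-CKO mice carried 1 such copy. All mice were male and 8-12 weeks old. Polyadenylated RNA of the cornea was read from its 3′ end, and the deposited values are read counts per gene.

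The strain of a library is not written in the cornea columns of the deposited table. The columns without a NACC tag were read as the MS strain because their numbers, 5 against 5, match the MS samples, while those with the tag were read as the SNS strain. A further 11 columns named for the conventional KO strain hold exactly the values of MS columns, and 6 of them equal cornea libraries used here, with MS-CKO 1 and 3 also standing as KO, MS-WT 1, 2 and 3 also standing as KO-strain WT, and MS-WT 4 also standing as a trigeminal ganglion (TG) KO library. All results below carry this doubt about the identity of the libraries. Library totals ran from 2438304 to 6741290 counts (median 4898553). MS-CKO 4 and 5 and MS-WT 5 carry a B2 tag in their names, taken here as a batch of unstated kind. The first principal component (19.4% of the variance) separated these 3 libraries from the other 7, and 398 genes (3.36%) differed between them at an adjusted p under 0.05 in edgeR, 192 higher and 206 lower with the tag. Batch was therefore a term in the fit whose values are given, unless another is named.

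MicroRNAs guide a silencing complex to mRNAs through their seed, the bases 2 to 8 from the 5′ end, and matches to the seed in a 3′ UTR usually lower the level of the mRNA or its translation. miR-183, miR-96 and miR-182 are made from neighbouring hairpins and are best known from sensory cells of the eye, ear and ganglia. In the cornea, resident myeloid cells lie among a thick epithelium and a stroma of keratocytes, so that RNA of the whole tissue is mostly that of the epithelium. If a microRNA is lost in a cell, mRNAs with its sites may rise in that cell.

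The mature sequences are shown because the sites that are counted further on derive from them. The seed is in capitals, and the sequences and positions are those of RefSeq on GRCm38.p6, on the minus strand of chromosome 6 (miR-183-5p at 30169711 to 30169732, miR-96-5p at 30169506 to 30169528 and miR-182-5p at 30165962 to 30165986).
miR-183-5p: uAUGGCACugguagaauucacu
miR-96-5p: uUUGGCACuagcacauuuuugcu
miR-182-5p: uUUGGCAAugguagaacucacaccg
No pair of these seeds is identical. The matching DNA sites are GTGCCAT for miR-183-5p, GTGCCAA for miR-96-5p and TTGCCAA for miR-182-5p, called 8mer where an A follows and 7mer-m8 otherwise.

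Among the genes of lowest p-value in the comparison, sites stood in the annotated 3′ UTR of Dcaf12, Mfsd5 and Tgif2, which read higher in MS-CKO, and of Tnks1bp1, Rassf9 and Marf1, which read lower. The following stretches (GRCm38, mRNA strand, seed match in capitals) show them for the first 5 genes and for Cx3cl1, a chemokine gene that the study followed as a target.
Dcaf12, miR-183-5p, chr4:41291408-41291430, minus strand: cttgtaggatgttttGTGCCATt
Dcaf12, miR-182-5p, chr4:41291327-41291349, minus strand: tagcatttgacttttTTGCCAAg
Mfsd5, miR-96-5p, 8mer, chr15:102281668-102281690, plus strand: tgacagactggaaagGTGCCAAa
Tgif2, miR-183-5p, chr2:156853791-156853813, plus strand: cctgtactctgctgaGTGCCATt
Tnks1bp1, miR-183-5p, chr2:85072609-85072631, plus strand: tggcagtctcaggcaGTGCCATt
Rassf9, miR-96-5p, chr10:102548579-102548601, plus strand: aggtattaaaggcctGTGCCAAc
Rassf9, miR-182-5p, chr10:102547140-102547162, plus strand: ctttccccctcctatTTGCCAAc
Cx3cl1, miR-183-5p, chr8:94782364-94782386, plus strand: tcattaccaatgtctGTGCCATt

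The genes at the engineered loci were read first. Mir183, Mir96 and Mir182 had 0 counts in all 10 libraries, where a count of 0 allows up to 3 counts in a library, and since a library of polyadenylated 3′ ends does not sample mature microRNAs, this says nothing of the deletion. Mirc35hg, the host gene of the cluster, had 15, 6, 2, 3 and 7 counts in MS-CKO and 2, 5, 6, 3 and 0 counts in MS-WT, with overlapping groups. Its level was 1.46 ± 1.11 CPM (read counts scaled to a common library total, mean ± SD, n = 5) in MS-CKO against 0.549 ± 0.361 CPM in MS-WT (exact two-sided permutation p = 0.0952), and it fell under the filter on low counts. Lyz2 had 1 count in the 5 MS-CKO libraries together and 4 in the 5 MS-WT libraries, at most 0.444 CPM in a library. Csf1r, the receptor of macrophage colony-stimulating factor that drives the reporter, read 1.33, 0.477, 6.96, 1.67 and 1.19 CPM in MS-CKO and 4.73, 0.740, 2.38, 3.93 and 0 CPM in MS-WT, which overlap fully. Reads from 3′ ends do not show the Cre insertion at the start of Lyz2 or the loss of the cluster, so that no gene in these libraries checks the genotype labels.

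In the sorted Csf1r-EGFP+ cells of the cornea of the same strain, of which there is 1 pooled library a group, Lyz2 read 77.5 CPM in MS-CKO and 19.8 CPM in MS-WT, a ratio of 3.92 (95% exact interval 3.25 to 4.75, counting error only). Csf1r read 182 and 322 CPM there, a ratio of 0.565 (0.531 to 0.601). These ratios compare a pair of libraries and carry no replicate error. Krt12, a keratin of the corneal epithelium, differed between the same libraries by a ratio of 4.45 (4.39 to 4.52). Epithelial markers summed to 54859 CPM in the MS-CKO pool and 16733 CPM in the MS-WT pool. Keratocyte markers summed to 65197 and 73278 CPM, and macrophage markers to 5725 and 5779 CPM. The pools had 6455 and 3380 genes detected. Their ratios thus cannot be read as those of myeloid cells alone.

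Marker genes matched the tissue label. The 20 epithelial markers summed to between 104565 and 118342 CPM in MS-CKO and between 106223 and 112615 CPM in MS-WT. Krt12 alone read 25389, 23009.9, 23775, 29652 and 37589 CPM in MS-CKO and 20508, 25348, 23232, 23511 and 29811 CPM in MS-WT, with a log2 change of 0.09 (95% interval -0.09 to 0.27) from MS-WT to MS-CKO. Aldh3a1, the abundant aldehyde dehydrogenase of the epithelium, averaged 24028 CPM in MS-CKO and 24443 CPM in MS-WT. The keratocyte list, which holds the stromal proteoglycans and collagens, summed to 2209 to 4362 CPM in MS-CKO and 2192 to 4115 CPM in MS-WT, and the endothelial list to 2142 to 2830.4 CPM and 1924 to 2542 CPM. The markers of conjunctival and limbal epithelium summed to 7415 to 8662 CPM in MS-CKO and 6678 to 9347 CPM in MS-WT. Krt6a made up most of this sum, averaging 6144 CPM in MS-CKO and 5820 CPM in MS-WT. Krt13 averaged 1067 and 1016 CPM and Krt4 48.3 and 70.4 CPM, while the mucin genes Muc5ac and Muc16 were at 0 in every library.

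Markers of other eye tissues stood apart in 2 control libraries. The lens list summed to 1878 CPM in MS-WT 1 and 616 CPM in MS-WT 2, against 146 to 177 CPM in MS-WT 3, 4 and 5 and 152 to 221 CPM in the 5 MS-CKO libraries. In MS-WT 1 the retina and iris list also read 69.0 CPM, against 0.413 to 6.12 CPM in all others, and the red cell list read 273 CPM, against at most 36.0 CPM in all others. Lens genes are thus high in the control group through MS-WT 1 and 2, and retina and red cell genes through MS-WT 1 alone. Their part in the results was not tested, and the counts over all genes, gene lists, microRNA sites and chromosome windows are also given without MS-WT 1 and 2.

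**Figure D1:**
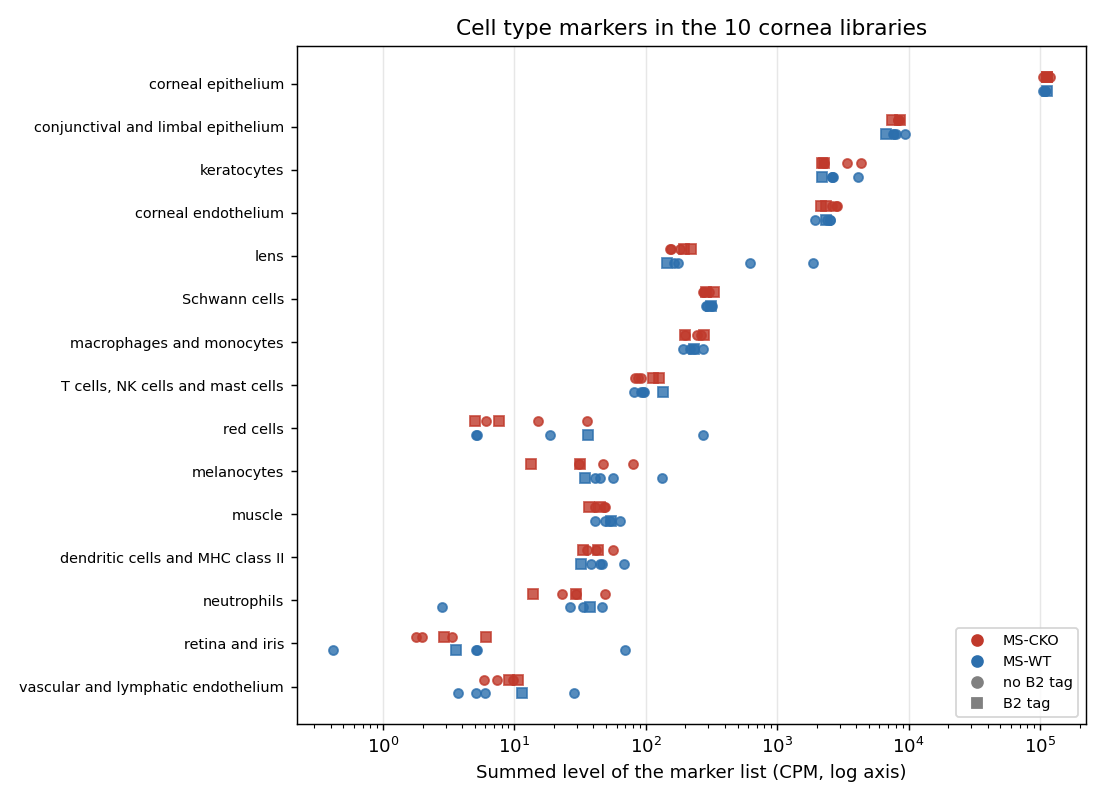
Summed CPM of marker lists (log axis) in each of the 5 MS-CKO and 5 MS-WT cornea libraries, 1 point a library, with B2 libraries marked. The epithelial, stromal and macrophage sums of the groups overlap, while the lens sum of MS-WT 1 (1878 CPM) and MS-WT 2 (616 CPM) lies far above the other 8 libraries. Most of the macrophage sum is Itgam.

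The myeloid genes that the knockout is aimed at were near the floor of these libraries. Of 28 genes of macrophages and monocytes 7 passed the filter on low counts, and none of the 28 was at 0 in every library. Ptprc, the pan-leukocyte phosphatase CD45, averaged 0.517 ± 0.415 CPM in MS-CKO and 0.700 ± 0.602 CPM in MS-WT (n = 5 each), and Adgre1, which encodes F4/80, averaged 0.485 ± 0.515 and 0.585 ± 0.554 CPM. The list summed to 197 to 275 CPM in MS-CKO and 191 to 274 CPM in MS-WT, and Itgam, the integrin chain CD11b, made up most of this sum at 142 ± 30.6 and 144 ± 20.8 CPM. Of 11 neutrophil genes 7 were at 0 everywhere, among them Ly6g, Csf3r, Cxcr2 and Elane. The T cell, NK cell and mast cell genes Cd3e, Nkg7, Klrd1 and Mcpt4 were also at 0 in all 10 libraries, and that list's sum of 81.8 to 136 CPM came almost wholly from Kit, at 99.5 ± 18.6 CPM in MS-CKO and 99.0 ± 20.9 CPM in MS-WT. In tissue RNA the number of cells of a type and the RNA per cell cannot be told apart. By microscopy the paper counted more Csf1r-EGFP+ cells per cornea in MS-CKO than in WT mice, in both sexes. Most of these markers are too near the floor to check such a rise.

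No gene differed between the MS-CKO and the MS-WT cornea past the threshold. Of 11830 genes tested with edgeR's quasi-likelihood test, 0 (0%) had an adjusted p under 0.05, and the smallest adjusted p was 0.998. At an unadjusted p under 0.05 there were 475 genes (4.02%), of which 242 (2.05%) read higher and 233 (1.97%) read lower in MS-CKO. DESeq2 gave 0 genes with 492 at an unadjusted p under 0.05, limma-voom gave 0 with 537, and edgeR's likelihood ratio test gave 0 with 500. The lowest bin of p-values, from 0 to 0.05, held 475 genes where equal bins would hold 591.5. Without MS-WT 1 and 2 there were again 0 genes, with 385 at an unadjusted p under 0.05. The genes at the low end of p are described in what follows as values, since none passed the test.

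The width of the intervals differed with the level of a gene. The median 95% interval of a log2 change reached 0.40 to each side. For 9368 genes (79.2%) the whole interval lay within a 2-fold change in both directions, and for 53.3% it lay within 1.5-fold. When the genes were divided by level into 4 bins of equal size, 99.8% of intervals lay within 2-fold in the highest bin, at 62.1 CPM or more, while 26.3% did in the lowest, from 1.53 to 8.13 CPM. For most genes of the epithelium and stroma a change of 2-fold is thus outside the interval, whereas for the myeloid genes, most of which fall in the lowest bin or under the filter, it often is not.

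**Figure D2:**
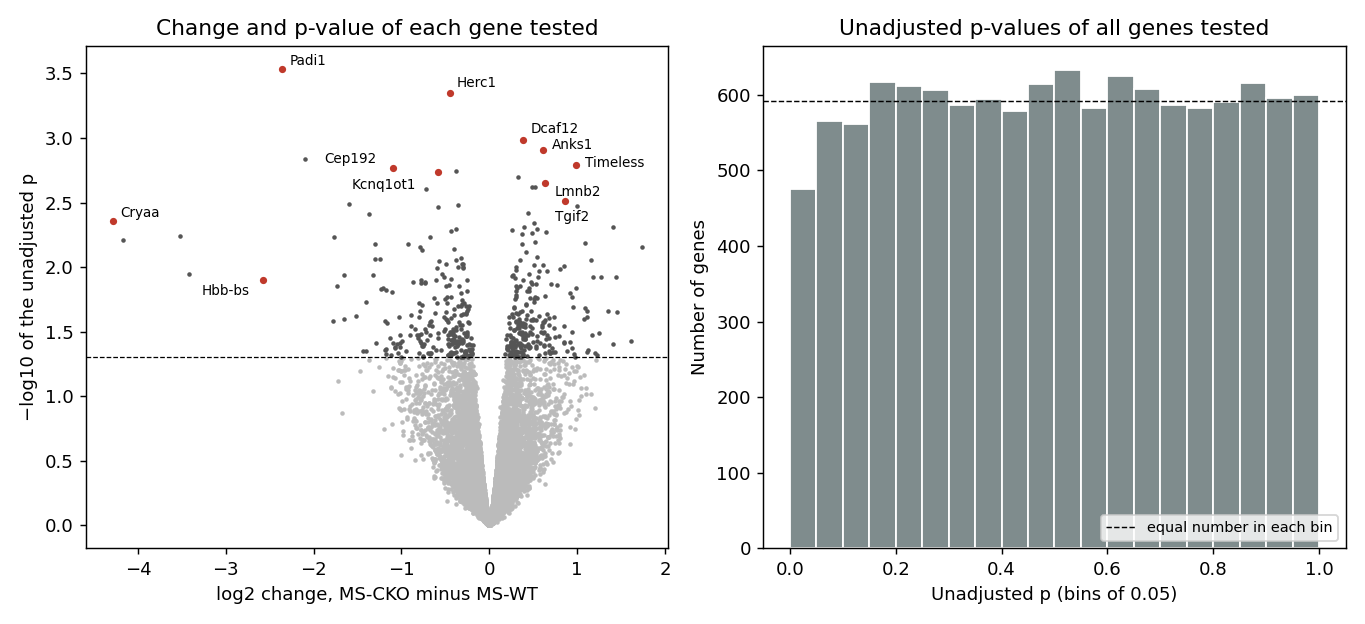
Left, the log2 change from MS-WT to MS-CKO of each of the 11830 genes tested against the −log10 of its unadjusted p, with the line at 0.05 and named genes in red. Right, the number of genes in each bin of 0.05 of the unadjusted p, where the first bin holds 475 genes and the dashed line marks 591.5.

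The genes that read higher in MS-CKO with the smallest p-values were of mixed kinds. Dcaf12, a substrate receptor of a cullin ubiquitin ligase (chromosome 4, 41291300 to 41314889, minus strand, GRCm38), read 100.4, 98.8, 96.0, 87.9 and 89.9 CPM in MS-CKO and 87.2, 73.6, 78.0, 71.3 and 62.4 CPM in MS-WT. The lowest MS-CKO library stood just above the highest MS-WT library, and the log2 change was 0.39 (95% interval 0.18 to 0.60, adjusted p = 0.998 by edgeR). Such groups without overlap were found for 44 genes with higher values in MS-CKO (0.372%) and 43 with lower values (0.363%) of all 11830. Each had an exact two-sided permutation p of 0.00794, the smallest that 5 libraries against 5 can give. The lack of overlap fixes this p, so it adds no support, and it takes no account of batch. Libraries divided at random would give such groups, over both directions together, at that same rate. Anks1, an ankyrin repeat adaptor on chromosome 17, also had groups that did not overlap, with 28.1, 25.4, 27.8, 27.5 and 21.7 CPM in MS-CKO and 17.2, 15.4, 19.7, 17.6 and 16.8 CPM in MS-WT. Its log2 change was 0.61 (0.27 to 0.95).

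Lmnb2, which encodes lamin B2 of the nuclear lamina, read 21.3, 20.04, 22.7, 17.9 and 27.7 CPM in MS-CKO and 12.2 to 14.8 CPM in MS-WT, a log2 change of 0.64 (0.26 to 1.02) with no overlap. Vps16, a core subunit of the complexes that tether vesicles to endosomes and lysosomes, read 29.9, 34.2, 36.0, 35.8 and 30.4 CPM in MS-CKO and 19.1, 25.6, 21.1, 20.05 and 29.6 CPM in MS-WT. Its groups touch without overlapping, the MS-WT library with the highest value being the B2 library. The log2 change of Vps16 was 0.51 (0.18 to 0.83) over all libraries, 0.63 among those without the B2 tag and 0.16 among those with it.

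Tgif2, a homeodomain repressor that acts on SMAD proteins in TGF-beta signalling, read 11.3, 10.8, 12.5, 7.5003 and 9.68 CPM in MS-CKO and 5.80, 5.63, 7.47, 5.99 and 4.99 CPM in MS-WT, a log2 change of 0.87 (0.33 to 1.401). Here too the groups did not overlap, though by a margin of less than 1 CPM. Timeless, which works at the replication fork, read 6.25 to 14.6 CPM in MS-CKO and 3.57 to 8.06 CPM in MS-WT, with overlap and a log2 change of 0.99 (0.43 to 1.56). Other genes of this kind with overlapping groups were Ulk1, the kinase that starts autophagy (0.53), Tcf3, an E protein (0.49), Cep63, a centriole protein (0.44), Ifi27, an interferon-induced gene (0.40), and Mfsd5, a transporter of the major facilitator family (0.33), each value a log2 change. 1810043G02Rik read 8.33 ± 3.19 CPM in MS-CKO and 4.74 ± 1.62 CPM in MS-WT (n = 5 each).

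Among the genes that read lower in MS-CKO, Herc1 was the most even between libraries. Herc1 encodes a giant ubiquitin ligase (chromosome 9, 66350450 to 66508775, plus strand) and read 63.4, 69.3, 73.8, 75.8 and 57.9 CPM in MS-CKO and 94.8, 87.8, 91.5, 98.0 and 93.1 CPM in MS-WT. The groups did not overlap, the highest MS-CKO library reading 75.8 CPM and the lowest MS-WT library 87.8 CPM, and the log2 change was -0.45 (-0.67 to -0.23, adjusted p = 0.998 by edgeR). It was -0.43 without the B2 libraries and -0.48 among them. Crtc3, a coactivator of CREB, read 11.1, 8.27, 12.5, 14.2 and 14.4 CPM in MS-CKO and 18.9, 21.2, 19.9, 18.8 and 16.4 CPM in MS-WT, also with no overlap, and its log2 change was -0.72 (-1.15 to -0.29). Abi3bp, an extracellular matrix protein gene, read 30.4 to 50.9 CPM in MS-CKO and 52.0 to 65.5 CPM in MS-WT, a log2 change of -0.43 (-0.72 to -0.15) with no overlap. For Abi3bp it was -0.26 without MS-WT 5, -0.26 without the B2 libraries and -0.91 among them, and for Crtc3 it was -0.19 among the B2 libraries.

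Padi1, which encodes a peptidyl arginine deiminase of epithelia, had the smallest p of all genes. It read 1.77, 5.09, 0, 10.8 and 13.6 CPM in MS-CKO and 23.6, 9.77, 32.2, 10.7 and 25.3 CPM in MS-WT, so that MS-CKO 4 and 5 read above MS-WT 2 and 4. The log2 change was -2.35 (-3.47 to -1.24), and -1.02 among the B2 libraries. Cep192, a centrosome scaffold, read 2.44, 4.29, 3.78, 7.92 and 6.32 CPM in MS-CKO and 7.47 to 10.7 CPM in MS-WT, a log2 change of -1.10 (-1.73 to -0.47) with 1 MS-CKO library above the lowest MS-WT library, and it was -0.60 among the B2 libraries.

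Kcnq1ot1, a long imprinted RNA read antisense to Kcnq1, was at 83.1, 120.1, 138, 129 and 66.4 CPM in MS-CKO and 137, 157, 180.1, 176 and 162 CPM in MS-WT. Only MS-CKO 3 reached the range of MS-WT, and the log2 change was -0.58 (-0.91 to -0.24). Whether the counting used the strand is not given in the sources used here, so reads of Kcnq1 introns cannot be told apart from it. Marf1 (-0.38), Pcf11, a factor of 3′ end formation (-0.38), Tnks1bp1, a partner of tankyrase (-0.35), and Rassf9 (-0.58) had overlapping groups, each value a log2 change. Without MS-WT 5 that of Pcf11 was -0.23.

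**Figure D3:**
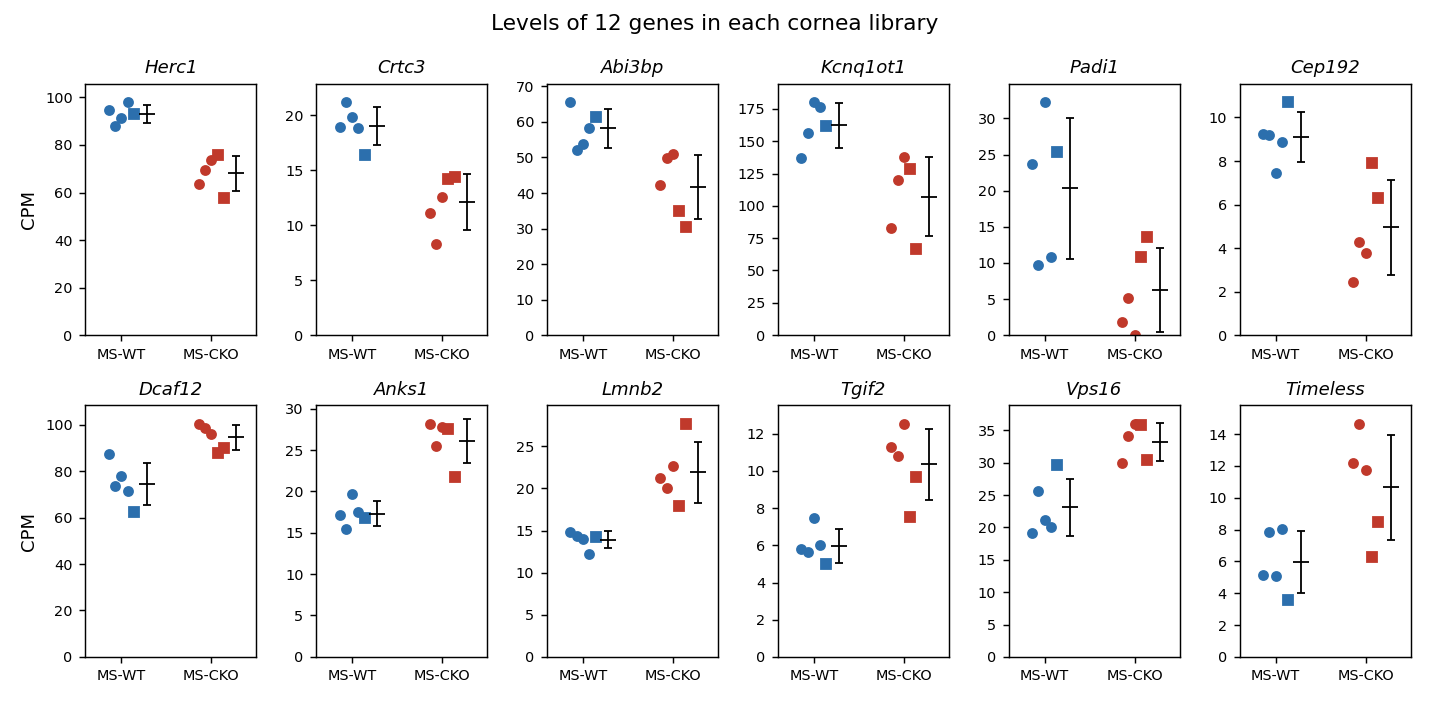
CPM of single genes in each of the 5 MS-CKO and 5 MS-WT cornea libraries, squares marking the B2 libraries, the bar the group mean ± SD and each axis starting at 0. Herc1, Crtc3, Abi3bp, Dcaf12, Anks1, Lmnb2, Tgif2 and Vps16 show groups that do not overlap, while Padi1, Cep192, Kcnq1ot1 and Timeless overlap.

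The largest values of the log2 change belonged to genes of other eye tissues. Cryaa, the alpha-A crystallin of the lens, read 251 and 102 CPM in MS-WT 1 and 2 and between 0 and 7.92 CPM in the other 8 libraries, which gave a log2 change of -4.29 (-7.06 to -1.51). Cryba1 and Crybb2 had the same shape, with -3.42 and -4.17. Hbb-bs, a beta globin, read 169.8 CPM in MS-WT 1 and at most 18.2 CPM elsewhere. These differences follow the libraries that carry lens and red cell RNA. Without MS-WT 1 and 2 the log2 change was 0.75 for Cryaa, 2.30 for Cryba1, 4.83 for Crybb2 and 0.05 for Hbb-bs, all of opposite sign.

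The genes of antigen presentation and of macrophages were read next. H2-DMb1, which helps load peptides on MHC class II, read 11.1, 6.52, 11.5, 7.92 and 4.74 CPM in MS-CKO and 5.59, 3.11, 6.51, 2.27 and 3.21 CPM in MS-WT, a log2 change of 1.10 (0.35 to 1.84) with overlap. Of 4 other genes of this pathway, 3 had a negative and 1 a positive value, and all 4 intervals held 0. Cd74 had -0.38 (-1.11 to 0.34), H2-Ab1 -0.18 (-0.96 to 0.59), H2-Eb1 -0.71 (-1.85 to 0.43) and H2-Aa 0.15 (-0.63 to 0.94) on the log2 scale. A further gene of the pathway, H2-DMa, had -0.10 (-0.82 to 0.62). Of the 15 genes of dendritic cells and MHC class II 7 were tested, with 1 higher and 0 lower at an unadjusted p under 0.05 (against 2.05% and 1.97% of all genes) and a median log2 change of -0.12, while the median over all genes was 0.00093.

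Among 7 tested macrophage genes 0 had an unadjusted p under 0.05, and the median log2 change was 0.06. Ctss, the lysosomal protease cathepsin S, averaged 17.4 ± 2.49 CPM in MS-CKO and 13.6 ± 2.84 CPM in MS-WT (n = 5 each), a log2 change of 0.35 (-0.10 to 0.79). Cd68 had 0.01 (-0.51 to 0.53), Cx3cr1, the receptor of CX3CL1, had 0.26 (-0.65 to 1.17), and Spi1, the master factor of myeloid cells, had 0.43 (-0.77 to 1.62). The intervals of Cx3cr1 and Spi1 reach beyond a 2-fold change.

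Chemokines and myeloid growth factors, which draw and sustain myeloid cells, were read in the same way. Of 30 genes 14 were tested, 0 had an unadjusted p under 0.05 in either direction, and the median log2 change was 0.02, with 8 positive and 6 negative values. Ccl2, Ccl4, Ccl7, Ccl20, Cxcl10 and Csf2 were at 0 in all 10 libraries. Cx3cl1, the fractalkine that retains CX3CR1+ cells, read 26.2, 40.7, 41.4, 27.9 and 30.6 CPM in MS-CKO and 38.0, 26.1, 35.9, 34.1 and 31.7 CPM in MS-WT, fully overlapping. Its log2 change was 0.06 (-0.29 to 0.40), which leaves a change of 1.5-fold outside the interval. Tnf had 0.65 (-0.25 to 1.56), Csf1 -0.47 (-1.34 to 0.40), Il34, the other ligand of CSF1R, 0.10 (-0.57 to 0.78), and Mif -0.16 (-0.42 to 0.10).

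The list of 11 targets of miR-183C that the study followed by protein and RNA was chosen there in the TG of the conventional knockout. Since a column named for that TG holds the values of MS-WT 4, it is not sure that the list is independent of the libraries used here. All 11 were tested, 0 had an unadjusted p under 0.05, and 5 were positive and 6 negative, with a median log2 change of -0.09. Hook3, a motor adaptor with a miR-183-5p and a miR-96-5p 8mer, averaged 310.0 ± 25.7 CPM in MS-CKO and 336 ± 23.0 CPM in MS-WT (n = 5 each), a log2 change of -0.13 (-0.33 to 0.06). Fem1b, which has a miR-96-5p 8mer, had 0.20 (-0.05 to 0.46), Prkce, a protein kinase C, had 0.16 (-0.17 to 0.49), and Gprasp2 had 0.77 (-0.23 to 1.76) at 3.68 against 2.24 CPM. For 10 of the 11 the interval lay within a 2-fold change, Gprasp2 being the exception. Fc gamma receptor phagocytosis genes, another theme of the study, gave 18 tested genes, 0 at an unadjusted p under 0.05 and a median of 0.02.

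**Figure D4:**
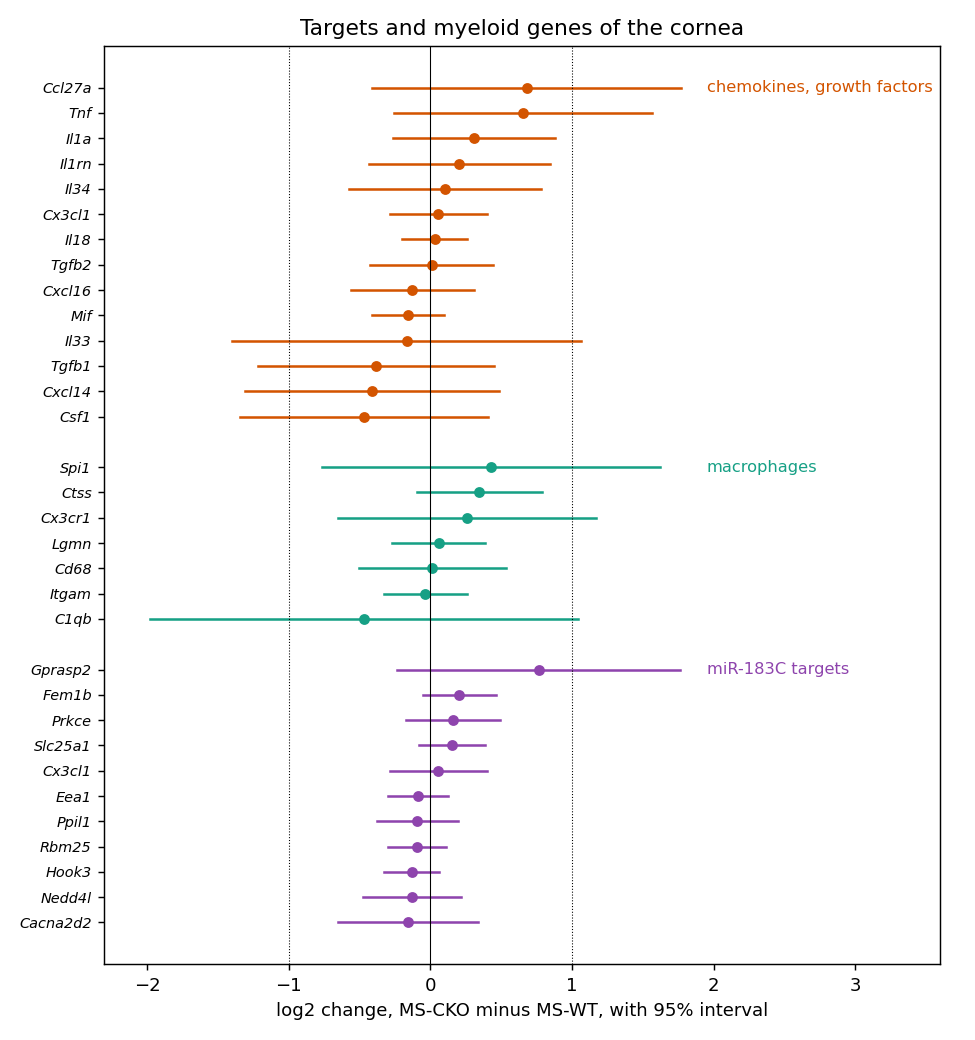
Log2 change from MS-WT to MS-CKO with its 95% interval for the 11 targets of miR-183C, the 7 tested macrophage genes and the 14 tested chemokines and growth factors, with dotted lines at a 2-fold change. All intervals hold 0, and those of Hook3, Rbm25 and Eea1 are among the narrowest while that of C1qb is the widest.

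Structural genes of the cornea gave a few low p-values in both directions, beside 2.05% higher and 1.97% lower of all genes. Of 20 epithelial markers 1 was higher at an unadjusted p under 0.05 and 0 were lower, with a median log2 change of 0.03. That gene was Elf3, an epithelial ETS factor, at 464, 502, 399, 439 and 559 CPM in MS-CKO and 440.1, 412, 384, 345 and 398 CPM in MS-WT, a log2 change of 0.24 (0.02 to 0.45) with overlap. Of 20 keratocyte genes 3 were higher and 1 was lower. These were Angptl7, a secreted factor of the stroma (0.80, 0.21 to 1.39), Col5a1, a collagen chain (0.77, 0.18 to 1.37), Lum, the proteoglycan lumican (0.43, 0.02 to 0.84) and Aldh1a1 (-0.35, -0.65 to -0.06), each a log2 change with its interval. The keratocyte median was -0.10, and Angptl7 ran from 56.5 to 189 CPM within MS-CKO and from 28.4 to 98.2 CPM within MS-WT. Slc4a11, the transporter of the corneal endothelium, was the 1 of 8 endothelial genes at an unadjusted p under 0.05, at 357 ± 26.5 CPM in MS-CKO and 286 ± 65.6 CPM in MS-WT (n = 5 each), a log2 change of 0.33 (0.04 to 0.62). Without MS-WT 1 and 2, where 1.54% of all genes were higher and 1.59% lower, 3 of 20 epithelial markers were higher (Elf3 and the basal keratins Krt14 and Krt15), 2 of 20 keratocyte genes were higher and 2 lower, and 0 of 8 endothelial genes had an unadjusted p under 0.05. Among 10 macrophage genes then tested, 1 was higher, Fcgr3, an Fc gamma receptor.

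The pathway lists were read in the same way, each beside 2.05% of genes higher and 1.97% lower at an unadjusted p under 0.05 and a median of 0.00093 over all genes. These lists were chosen with earlier results of these data known, so a member with a low p adds no support. The HERC and HECT ubiquitin ligases had 18 of 21 negative values and a median of -0.09, but only Herc1 had an unadjusted p under 0.05. Their summed level was 2000.1 to 2129 CPM in MS-CKO and 2109 to 2336 CPM in MS-WT, which overlap through MS-CKO 4. The interferon response list had 11 of 17 positive values and a median of 0.17, with Ifi27 (0.40) and Gbp3 (1.18, 0.29 to 2.07) at an unadjusted p under 0.05. Gbp3, a guanylate-binding protein, read 4.88, 5.09, 9.74, 10.4 and 4.35 CPM in MS-CKO and 4.51, 3.70, 2.54, 3.72 and 1.07 CPM in MS-WT, and the groups overlapped.

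Of 22 tested imprinted genes, 3 were lower and 0 higher, with a median of -0.0063. They were Kcnq1ot1, Igf2, the fetal growth factor (-0.67, -1.13 to -0.22), and Peg3, a zinc finger gene (-0.67, -1.33 to -0.01). Igf2 read 14.4, 13.7, 11.9, 16.3 and 7.90 CPM in MS-CKO and 22.3, 16.9, 20.8, 16.3 and 25.0 CPM in MS-WT. Its groups meet at 16.3 CPM.

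Of 24 tested genes of TGF-beta and BMP signalling, 2 were higher and 0 lower, with a median of -0.04. Beside Tgif2 this was Id2, an inhibitor of E proteins, at 868, 784, 803, 760.0 and 904 CPM in MS-CKO and 722, 757, 721, 756 and 689 CPM in MS-WT, with no overlap and a log2 change of 0.18 (0.0027 to 0.36). In the V-ATPase, the proton pump of lysosomes, 1 of 16 genes was higher, Atp6v0e2 (0.65, 0.17 to 1.13), and the median was 0.03. In the nuclear lamina and envelope list 1 of 18 was higher (Lmnb2) and 1 lower (Syne2, -0.25, -0.47 to -0.02).

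The cell cycle list had 20 tested genes, 1 lower (Mki67, the proliferation antigen, -0.41, -0.82 to -0.01) and a median of -0.06. The circadian clock list had 16 tested genes, 1 lower (Ciart, -1.10, -2.14 to -0.06) and a median of -0.04. Immediate early and heat shock genes, which respond to handling, had 15 of 20 positive values, a median of 0.10 and 0 genes at an unadjusted p under 0.05. Mouse KRAB zinc finger genes had 11 tested members and 1 higher, Zfp759, at 5.32, 3.98, 6.16, 9.17 and 4.74 CPM in MS-CKO and 1.504, 1.63, 3.18, 2.27 and 3.57 CPM in MS-WT with no overlap. HOPS and CORVET subunits other than Vps16 lay between -0.17 and 0.27 on the log2 scale.

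Without MS-WT 1 and 2, 1.54% of all genes were higher and 1.59% lower at an unadjusted p under 0.05. By the same measure the interferon response list had 5 of 17 genes higher and 0 lower (Ifit1, Ifit3, Rsad2, Ifi27 and Gbp3). None of them passed the adjusted threshold. Of the MS-WT libraries, MS-WT 2 had the highest sum of this list, 919 CPM, and MS-WT 1 the lowest, 683 CPM. The sums of MS-WT 3, 4 and 5 were 734, 840 and 702 CPM, and those of MS-CKO 785 to 1073 CPM. The part of MS-WT 2 in the count of 5 genes was not tested. Rsad2, which read 34.1 CPM in MS-WT 2, had a log2 change of 4.67 (adjusted p = 0.0688 by edgeR) without these libraries and of 0.09 with them. Kcnq1ot1, Igf2 and Peg3 were again the 3 lower imprinted genes, and Herc1 the 1 lower ubiquitin ligase, while the V-ATPase, cell cycle and KRAB zinc finger lists had 0 genes at an unadjusted p under 0.05. In TGF-beta and BMP signalling Tgif2 was higher and Smad1 lower, and the chemokine list, the immediate early and heat shock list and the 11 targets again had 0. H2-DMb1 was again the 1 gene of its list, Lmnb2 the higher and Syne2 the lower gene of the nuclear lamina list, and Vps16 the higher gene of its complexes. The circadian clock list had 1 higher and 2 lower genes (Dbp, Tef and Ciart), and Fcgr3 was the 1 higher gene of Fc gamma receptor phagocytosis.

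**Figure D5:**
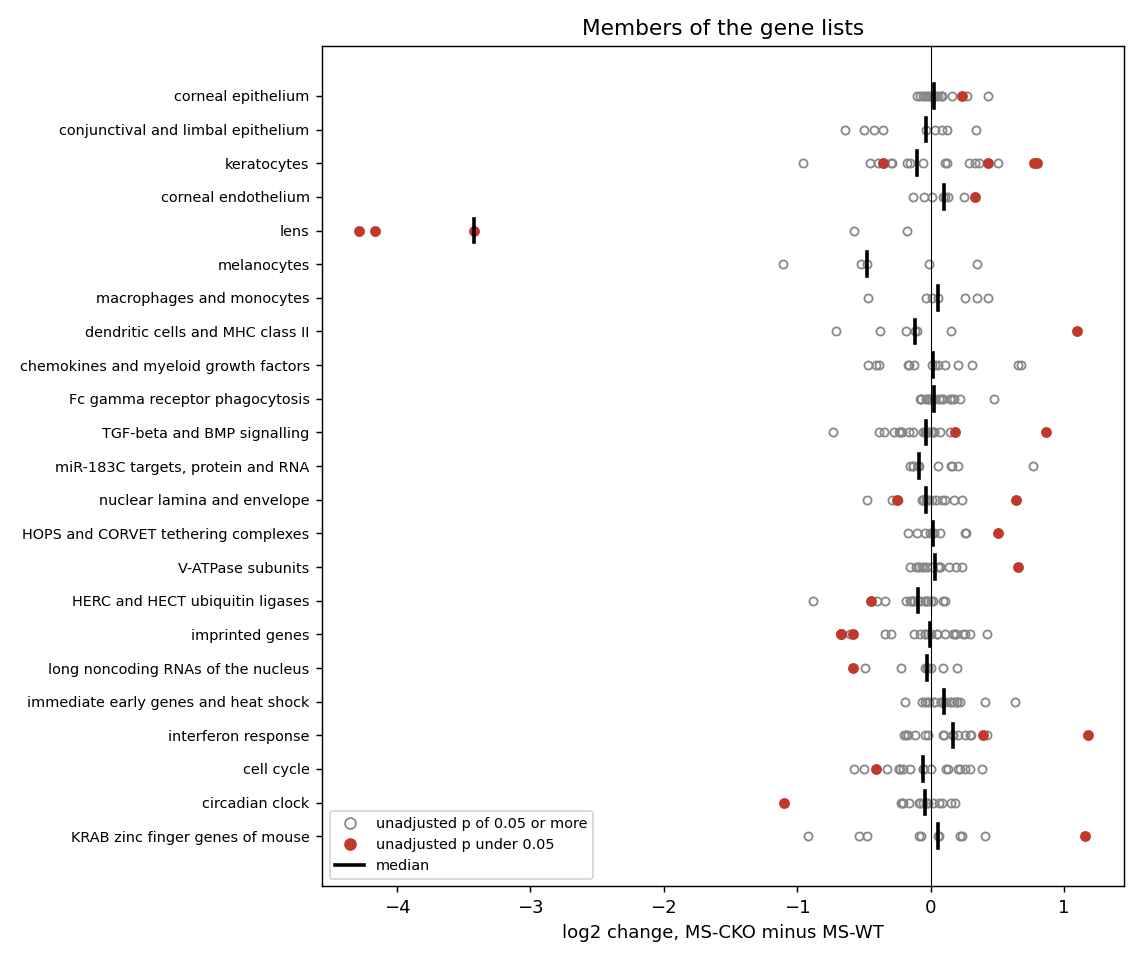
Log2 change from MS-WT to MS-CKO of each tested member of the gene lists (points, filled where the unadjusted p is under 0.05) with the median of the list (bar). Most medians lie close to the median of all genes at 0.00093, with that of the lens list far below at -3.42.

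Genes with sites of the 3 microRNAs were set beside those without. An annotated 3′ UTR was at hand for 10693 tested genes, and 3063 of them (28.6%) held a 7mer-m8 or 8mer site. Their median log2 change was -0.0051, against 0.0079 for the 7630 genes without a site, and 48.9% against 51.7% were positive. For sites of miR-183-5p the median was -0.0098 over 1278 genes, for miR-96-5p -0.0032 over 1112 genes and for miR-182-5p -0.0073 over 1402 genes. At an unadjusted p under 0.05, 2.15% of all genes with a 3′ UTR were higher and 1.73% lower. Among genes with a miR-183-5p site these shares were 1.25% and 1.8%, with a miR-96-5p site 2.79% and 1.62%, with a miR-182-5p site 1.28% and 2.35%, and with no site 2.31% and 1.68%. Without MS-WT 1 and 2 they were 1.24% and 1.83% for genes with any site and 1.70% and 1.23% for genes with none. The difference between genes with and without sites was not tested. With 8mer sites alone the median was -0.010 over 1071 genes. Genes with a site have longer 3′ UTRs, with a median length of 2348 bases against 893 bases. Of the 12 higher genes of smallest p, 3 (25%) had a site, and of the 11 lower ones with an annotated 3′ UTR, 3 (27.3%) did, beside 28.6% of all.

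The Cre allele marks chromosome 10 at Lyz2, and the groups could differ there in genes linked to it. Within 5 Mb of Lyz2 33 genes were tested, 1 was higher and 0 lower at an unadjusted p under 0.05, and the median log2 change was 0.06, while of all 11830 genes 2.05% were higher and 1.97% lower. The gene was Mdm2, the ubiquitin ligase of p53, at 61.9 ± 5.90 CPM in MS-CKO and 52.7 ± 5.35 CPM in MS-WT (n = 5 each), a log2 change of 0.27. Within 1 Mb 9 of 10 genes had a positive value, with a median of 0.08, beside 5935 of all 11830 genes. Within 20 Mb 128 genes were tested, 4 were higher and 3 lower at an unadjusted p under 0.05, with a median of 0.04. Timeless had the highest log2 change of that window, 0.99, and Rassf9 also lies in it. The lowest was -2.10, of Gm36283, at a mean of 1.96 CPM and with groups that did not overlap. Whether linkage to the Cre allele has a part in these values was not tested. Around the cluster on chromosome 6, where both groups carry the floxed allele, 40 genes within 5 Mb had a median of 0.05, with 1 higher and 2 lower at an unadjusted p under 0.05. Akr1b8, an aldo-keto reductase, had a log2 change of 0.94 (SE 0.43), Tnpo3, a nuclear import receptor, one of -0.20 (SE 0.09) and the long noncoding RNA Lncpint one of -1.24 (SE 0.46). Mdm2, Gm36283 and these 3 genes were named after their values were seen, and none passed the adjusted threshold. Without MS-WT 1 and 2, Mdm2 was again the 1 gene near Lyz2, and Tnpo3 and Lncpint the 2 genes near the cluster, at an unadjusted p under 0.05.

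The same genes were read in the cornea of SNS-CKO mice, in which Cre follows the sodium channel Nav1.8 of sensory neurons, and in the TG of MS-CKO mice. SNS-CKO mice and their controls both carried Nav1.8-Cre(+/-), a Cre-dependent RFP reporter and Csf1r-EGFP. SNS-CKO mice were miR-183C f/f and their controls miR-183C +/+. In the SNS strain the floxed alleles thus differed between groups and the Cre allele did not, the reverse of the MS strain. A difference of the CKO response between the MS and the SNS cornea passed in 0 of 13031 genes (0%), with 438 (3.36%) at an unadjusted p under 0.05 by edgeR and 0 with 448 by DESeq2. Between cornea and TG of the MS strain it passed in 0 of 14367 genes (0%), with 891 (6.2%) at an unadjusted p under 0.05 by edgeR, while DESeq2 gave 1 gene, Dmtn, with 1024. Labels do not say whether cornea and TG libraries of one number are from the same mouse, and a fit with that number as a block gave 0 genes.

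Since the genes were picked in the MS cornea, only their values elsewhere are given. Herc1 had log2 changes of -0.45 in the MS cornea, -0.21 in the SNS cornea and 0.0032 in the MS TG. Abi3bp had -0.43, -0.50 and -0.12. Dcaf12 had 0.39, 0.10 and 0.12. Lmnb2 had 0.64, 0.35 and -0.06. Tgif2 had 0.87, -0.33 and 0.25, Crtc3 -0.72, 0.17 and -0.0063, and H2-DMb1 1.10, -0.56 and -0.14, so that these 3 had the opposite sign in the SNS cornea.

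In the pooled sorted cells, keratocyte markers were high, and Krt12 and other epithelial transcripts also differed. The same genes were uneven there and often at 0 in a library. Herc1 read 76.2 CPM in the MS-CKO pool and 73.2 CPM in the MS-WT pool, a ratio of 1.04 (95% exact interval 0.929 to 1.17). Dcaf12 read 24.6 and 312 CPM, a ratio of 0.0789 (0.0692 to 0.0897), and H2-DMb1 239 and 688 CPM, a ratio of 0.347 (0.330 to 0.364), both opposite in direction to the whole cornea. Cx3cl1, Tgif2 and Padi1 had 0 counts in both pools.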

How the data were processed

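The authors made QuantSeq 3′ FWD libraries, ran them on a NovaSeq instrument, used STAR with the mm10 build and tallied reads by gene in HTSeq. No version or annotation is given in the sources used here. What was deposited is one table of raw read counts, with no normalization, for 35976 genes and 54 columns, of which 7 columns were not used here. A further 27 gene names were turned into dates (at most 0.11% of the counts of a cornea library) and are not named. The labels name a mouse for each MS-WT cornea library, and only the strain and a number for each MS-CKO one. The sorted-cell libraries are pools. Counts of the 10 libraries were fitted in edgeR 4.0.16 under R 4.3.3 (limma was 3.58.1). Libraries were scaled by TMM, low genes dropped by filterByExpr by group, and genotype tested by the quasi-likelihood F test with the B2 tag as batch term. The SE is the log2 change over the square root of F. Benjamini-Hochberg adjustment covered every gene tested, at a threshold of 0.05. CPM are counts scaled to a common library total after TMM. For single genes, log2(CPM + 0.5) was also compared by an exact permutation test, two-sided. Interactions were fitted over the cornea of both strains and over cornea and TG of the MS strain. Sites and positions come from GENCODE vM21 on GRCm38, which placed 11089 tested genes. In the pooled sorted cells the intervals are exact binomial and cover counting error only. DESeq2 1.42.0, limma-voom, other normalizations and filters, single batches, the replicate block, the other reading of the names and leaving out each library were alternatives.

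Genes named are the 12 of smallest p each way and the 5 of largest change each way among those with an unadjusted p under 0.05, all at a mean of at least 5 CPM, fixed genes (Lyz2, Mirc35hg, Krt12, Cx3cl1, Csf1r and Kcnq1ot1), members of smallest p or highest level of each list, and genes that an alternative took past the threshold. The members and gene lists were chosen with earlier results of these data known. Of the genes this rule gives, 1 is not reported here and is left out of its marker list. Mdm2, Gm36283, genes named for the counts without MS-WT 1 and 2 and genes whose values show marker levels were named after their values were seen.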

Additional observations from a re-analysis of the deposited data

Results flagged for a closer look

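In 98 groups of 5 libraries examined (single genes and list sums in MS-CKO or MS-WT), 11 held a library far from the other 4. The rule was Dixon's, a gap to the nearest library past 0.71 of the range of the group. List sums share genes with single items and some levels rest on few counts, so the 11 cannot be set beside a chance rate. In MS-WT 1 these were Crybb2 at 236 CPM, Hbb-bs at 169.8 CPM, and the sums of the lens list at 1878 CPM, the melanocyte list at 133 CPM, the retina and iris list at 69.0 CPM and the red cell list at 273 CPM. In MS-WT 3 the keratocyte list stood high at 4115 CPM, and in MS-WT 5 the T cell, NK cell and mast cell list stood high at 136 CPM while Tcf3 stood low at 22.5 CPM. In MS-CKO 3 Csf1r stood high at 6.96 CPM, and in MS-CKO 5 Lyz2 stood at 0.198 CPM, which is 1 count. The part of these libraries in the results was not tested beyond the counts without MS-WT 1 and 2.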

How the results depend on the processing

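Of 26 alternatives to the comparison of MS-CKO with MS-WT, 24 gave 0 genes at an adjusted p under 0.05, and leaving out each library gave 0 to 0 genes (363 without MS-WT 2 to 637 without MS-CKO 1 at an unadjusted p under 0.05). Without the filter on low counts 32 genes passed (29 lower, 3 higher, 16 of them also tested with the filter), and the B2 libraries alone, 2 against 1, gave 4, namely Cwc22 (-5.44 on the log2 scale), Rsad2 (6.78), 4833423E24Rik (-3.76) and Cyp4a12a (-1.92). In that fit the lone MS-WT library is assumed to vary like the MS-CKO libraries. DESeq2 gave 1 gene for the difference between cornea and TG. Same-numbered MS-CKO and MS-WT libraries did not deviate together (r of -0.0754 to 0.0935, or of -0.457 to 0.0987 after batch), and with the replicate block 0 genes passed (457 at an unadjusted p under 0.05 in place of batch, 434 with it). The other reading, which takes the B2 libraries of both names as MS, gave 0 genes with 1172 at an unadjusted p under 0.05, and turned Cep63 (-0.032), Crtc3 (0.033), H2-DMb1 (-0.044) and Tgif2 (-0.070), each a log2 change. The B2 libraries alone turned Cryaa (6.59), Cryba1 (6.82) and Cx3cl1 (-0.11). Leaving out MS-WT 1 and 2, chosen after seeing the data, turned Cryaa (0.75), Cryba1 (2.30), Crybb2 (4.83), Hbb-bs (0.046) and Cx3cl1 (-0.0051). Cx3cl1 ran from -0.027 (without MS-CKO 3) to 0.17 with single libraries left out. Of 800 values of 31 named genes, 779 kept direction and side of the threshold, and 6 passed without the filter. The cause of these turns was not tested. Windows of 1 and 20 Mb and 8mer sites alone gave 0 genes past the threshold.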

Other observations

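Some genes fell into separate levels that crossed the groups. Cwc22, a splicing factor gene, read 249 to 615 CPM in MS-CKO 1 and 3 and MS-WT 1, 3 and 5, and 9.28 to 20.4 CPM in the other 5 libraries. In all 17 cornea libraries of both strains the TG library of the same number stood on the same side of 100 CPM, with 5 pairs high (245 to 616 CPM of the plain total in cornea, 131 to 399 CPM in TG) and 12 low (9.43 to 27.9 and 4.4997 to 12.6 CPM). Ubb, a polyubiquitin gene, likewise stood on the same side in 17 of 17 pairs, 4 of them low in both tissues (14.6 to 36.0 CPM in cornea and 26.5 to 71.2 CPM in TG). The labels do not say that libraries of the same number are of the same mouse. Piezo2, a mechanosensitive channel of sensory neurons, read 2.07 to 9.30 CPM or 105 to 368 CPM in cornea and 494 to 659 CPM in all TG libraries.

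Rsad2, the interferon-induced viperin, read 40.4 and 45.4 CPM in MS-CKO 4 and 5 and 34.1 CPM in MS-WT 2, and 0.357 to 8.27 CPM in the other 7 libraries. With batch in the model its log2 change was 0.09 (-2.13 to 2.32).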
